A study of Gallus gallus with 8 samples.

Results

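T-box transcription factors in the chick embryo were described here from all rows of the deposited gene tables whose name is TBX followed by a number. The rule found 8 of 17778 listed genes: TBX2, TBX3, TBX4, TBX5, TBX6L, TBX10, TBX15 and TBX20. The row TBX6L carries an older symbol of TBX6 in the RefSeq chicken gene table. A row named TBXT has no number and was not a member, and its neighbouring genes matched it to TBX19, while brachyury stood in the tables as BRAC.

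T-box factors bind DNA through a shared domain and act as activators or repressors, often on the same sites. In the heart, TBX5 and TBX20 work with NKX2-5 and GATA factors on genes of the working chambers, and TBX2 and TBX3 repress many of those genes in the atrioventricular canal and the conduction system. Earlier in development, brachyury, EOMES and TBX6 act in the primitive streak and in the mesoderm that leaves it.

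RNA came from pools of tissue dissected from chick embryos, with 1 library for each of 8 tissues and no genotype or treatment in the labels. The heart gave 4 libraries, called node, atrium, ventricle and junction below: the developing sinoatrial node (the embryo's pacemaker region), the left atrium, the apex of the common ventricle, and the atrioventricular junction at stage HH 17 to 18, HH being the Hamburger-Hamilton stages of the chick embryo. The lateral plate mesoderm at stage HH 8, before the heart beats, gave the other 4: the pacemaker progenitor field and the anterior, left and posterior mesoderm. The left library is labelled by side of the embryo, not by position along its length. Whether its tissue overlaps that of the other mesoderm libraries is not stated in the labels. The labels give no stage for the node, atrium and ventricle, so region and stage cannot be told apart in any comparison that uses them, those among the 3 included.

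Libraries held 10258697 to 17189803 counted reads. Levels are read counts scaled to library size (CPM) after TMM scaling, which aligns libraries through the bulk of their genes. With 1 library a tissue there is no replicate check and no p-value. All of 3 conditions made a call between 2 libraries: a log2 ratio of CPM + 1 of 1 or more in size, a level of 5 CPM or more in the higher library, and an exact 95% interval for the ratio of counts that left out 1. Folds are ratios of CPM with that interval, which covers counting error only and compares libraries, not conditions. A gene was tested where at least 1 compared library reached 5 CPM. The 8 cardiomyocyte markers found summed to between 25506 and 32646 CPM in the heart libraries and between 520 and 995 CPM in the mesoderm libraries, and HCN4, the channel of the pacemaker current, was highest in the node at 99.9 CPM.

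Of the 8 members, 5 reached 5 CPM in at least 1 library: TBX5, TBX20, TBX3, TBX2 and TBX6L. The other 3 were near or at 0 reads. TBX4, a factor of the hindlimb, had 4 reads in all, TBX10 had 4 reads, all in the pacemaker progenitor field, and TBX15 had 1 read. At these depths 3 reads correspond to between 0.162 and 0.326 CPM, so lower levels of these genes could not be detected.

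The members lay in a few places of the genome. TBX3 (chromosome 15, plus strand, 12519856 to 12530270) and TBX5 (chromosome 15, plus strand, 12588427 to 12666982) were neighbours with 0 listed genes and 58156 bases between them. TBX4 (chromosome 19, minus strand, 7545814 to 7565605) and TBX2 (chromosome 19, minus strand, 7574196 to 7577346) were likewise adjacent, 8590 bases apart. TBX20 lay on chromosome 2, plus strand, 47287927 to 47320791, and TBX6L on chromosome 15, plus strand, 8490756 to 8501676. These are gene spans as the tables give them, and the genome build is not given in the sources used here.

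**Figure D1:**
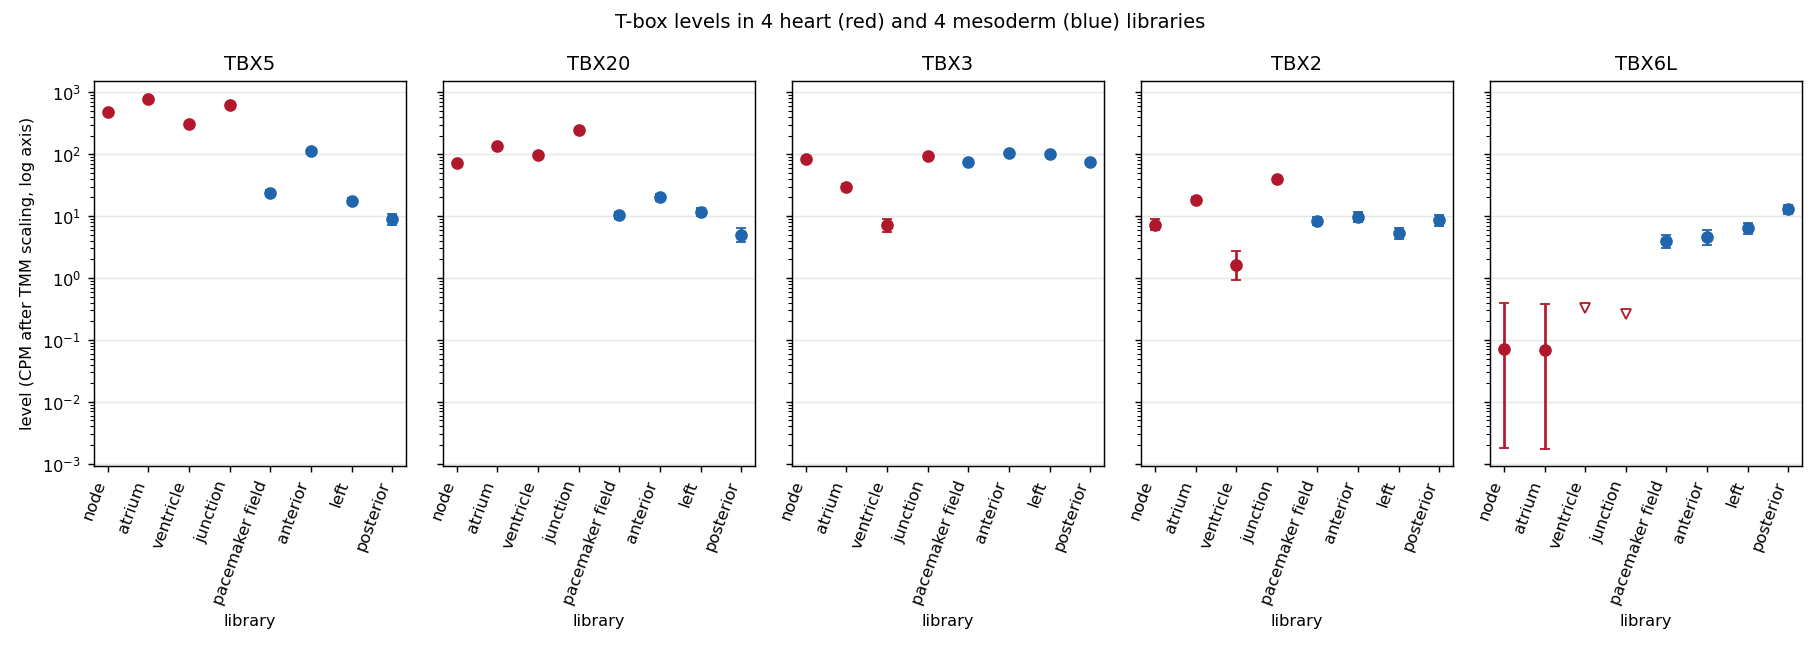
Level of the 5 members above 5 CPM in each library, in CPM after TMM scaling on a log axis, with red points for heart and blue points for mesoderm. Bars are exact 95% counting intervals and open triangles mark the level of 3 reads where a library had 0. TBX5 and TBX20 sit higher in every heart library than in any mesoderm library, while TBX3 dips in atrium and ventricle.

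TBX5, an activator of chamber genes that is also needed in the forelimb, was high throughout the heart. Its level was 777 CPM in the atrium, 612 in the junction, 481 in the node and 308 in the ventricle. The mesoderm libraries held 110.4 CPM (anterior), 24.0 (pacemaker progenitor field), 17.6 (left) and 8.92 (posterior). The heart and mesoderm values did not overlap, and in the order of levels every neighbouring pair differed beyond counting error. In these pooled tissues a smaller number of expressing cells and less RNA per cell cannot be told apart.

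TBX20, which in mouse hearts both activates and represses genes, reached 242 CPM in the junction, 135 in the atrium, 95.9 in the ventricle and 72.1 in the node. Its mesoderm levels were 20.2 CPM (anterior), 11.6 (left), 10.3 (pacemaker progenitor field) and 4.98 (posterior). Like TBX5 it was highest among mesoderm libraries in the anterior one and lowest in the posterior one, and its heart and mesoderm values did not overlap. Within the heart the orders differed, since TBX5 was highest in the atrium and TBX20 in the junction. The left mesoderm and the pacemaker progenitor field were the neighbours in TBX20's order that did not differ beyond counting error, at a ratio of 1.13 (0.919 to 1.38).

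TBX3, a repressor found in the conduction system of mouse and chick hearts, had another pattern. Junction and node held 95.1 and 82.8 CPM, atrium and ventricle 29.8 and 7.16 CPM, a range of 13.3-fold over the heart. The mesoderm libraries held 104.9 CPM (anterior), 101 (left), 76.0 (posterior) and 74.7 (pacemaker progenitor field), a range of 1.40-fold. Node and junction lay within the mesoderm range, and atrium and ventricle lay below every mesoderm library. Under scaling by total counts node and junction fell just below that range, at 82.1 and 81.0 CPM against 82.4 in the posterior library.

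TBX2, the close relative of TBX3 that in mouse represses chamber genes in the atrioventricular canal, ran from 39.1 CPM in the junction through 18.1 (atrium) and 7.26 (node) to 1.63 (ventricle). The ventricle value rests on 15 reads. Mesoderm levels were 9.79 CPM (anterior), 8.49 (posterior), 8.33 (pacemaker progenitor field) and 5.32 (left). The junction and atrium were therefore above every mesoderm library and the ventricle below every one, and the node lay inside the mesoderm range. Anterior, posterior, pacemaker field and node were consecutive in TBX2's order, and no neighbours among them differed beyond counting error.

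TBX6L, the row matched to TBX6 by an older symbol, had nearly all of its reads in the HH 8 libraries. Node and atrium had 1 read each, ventricle and junction 0. The posterior library held 13.0 CPM (151 reads), the left 6.31 CPM (109 reads), the anterior 4.63 CPM (53 reads) and the pacemaker progenitor field 3.95 CPM (73 reads). It passed the 5 CPM minimum through the left and posterior libraries alone. Its posterior level was above the others, and neither left and anterior nor anterior and pacemaker field, the next neighbours in its order, differed beyond counting error.

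Between the heart regions TBX3 and TBX2 accounted for most of the members called. Of 4 members tested between node and atrium, 2 were called, where 7.53% of all 9594 genes tested were. TBX3 was 2.78-fold (2.49 to 3.11) higher in the node and TBX2 2.50-fold (1.98 to 3.17) lower. The closely related repressors thus differed in opposite directions, although TBX2's call was lost when libraries were scaled by total counts. TBX20 had a log2 ratio of -0.90 and TBX5 of -0.69 and were not called.

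Between node and ventricle 2 of 4 members were called, against 11.7% of all genes tested. TBX3 was 11.6-fold (9.02 to 15.1) and TBX2 4.46-fold (2.58 to 8.26) higher in the node. The log2 ratio was 0.64 for TBX5 and -0.41 for TBX20.

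Node and junction both contribute to the conduction system, and 2 of 4 members were called between them, against 7.2% of all genes tested. TBX2 was 5.39-fold (4.33 to 6.75) and TBX20 3.35-fold (3.12 to 3.61) lower in the node. TBX3 differed by a log2 ratio of -0.20, and the interval of its fold, 1.15 (1.06 to 1.25) higher in the junction, excluded 1. Scaling by total counts turned this log2 ratio to 0.02, so TBX3 has no stable direction between these libraries.

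Between junction and atrium 2 of 4 members were called, against 6.82% of all genes tested. TBX3 was 3.19-fold (2.86 to 3.58) and TBX2 2.16-fold (1.85 to 2.52) higher in the junction. Between junction and ventricle 3 of 4 were called, against 11.2% of all genes tested. TBX2 was 24.0-fold (14.4 to 43.3), TBX3 13.3-fold (10.4 to 17.3) and TBX20 2.52-fold (2.33 to 2.72) higher in the junction, and TBX5, at a log2 ratio of 0.99, lay just under the threshold. Only 9 of 9558 genes tested had a higher ratio than TBX2 there, and 17 had a higher ratio than TBX3.

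Between the chambers themselves 3 of 4 members were called, all higher in the atrium, against 7.39% of all genes tested. TBX2 was 11.1-fold (6.63 to 20.2), TBX3 4.16-fold (3.20 to 5.47) and TBX5 2.52-fold (2.42 to 2.62) higher, and TBX20 had a log2 ratio of 0.49. When node and junction together were set against both chambers, every pair of libraries having to pass, TBX3 was the 1 member of 4 called, against 1.3% of all genes tested. Its mean log2 ratio was 2.21, and its nearest pair was node and atrium. TBX2 had a mean log2 ratio of 1.15, was above both chambers in the junction but not in the node, and was called when either the node or the atrium was left out. TBX5 had a mean log2 ratio of 0.01.

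**Figure D2:**
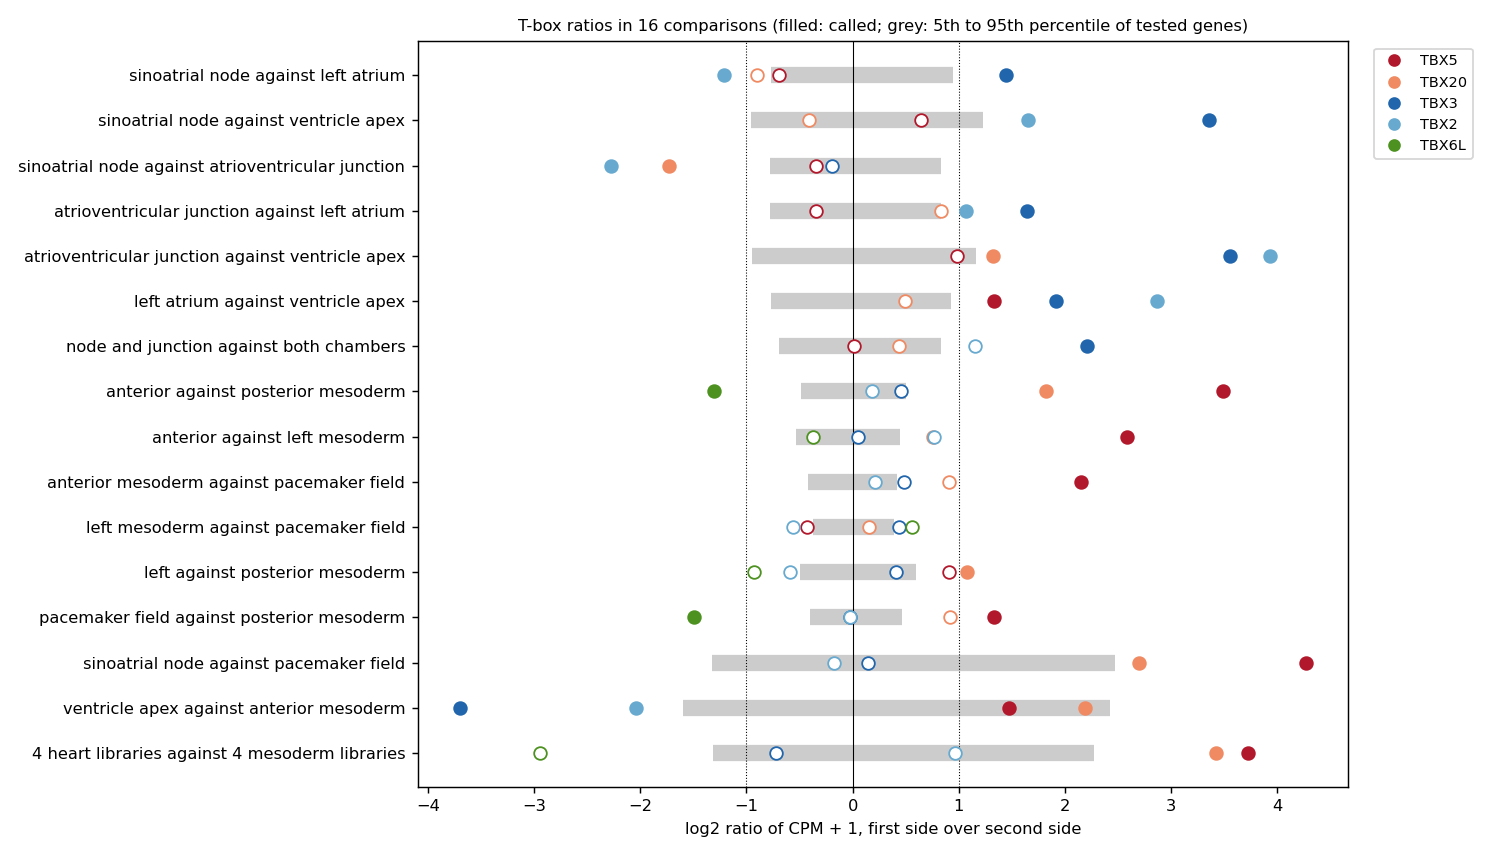
Log2 ratio of CPM + 1 for each tested member in 16 comparisons, the first-named side over the second. Filled points were called, open points were not, the dotted lines mark the threshold of 1 and grey bars run from the 5th to the 95th percentile of all genes tested. TBX3 and TBX2 spread widely between heart regions and TBX5 spreads most between mesoderm regions.

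Within the mesoderm the members called were TBX5, TBX20 and TBX6L. Between anterior and posterior libraries 3 of 5 members tested were called, against 1.94% of all genes tested. TBX5 was 12.4-fold (10.1 to 15.3) and TBX20 4.06-fold (3.03 to 5.51) higher in the anterior library, and TBX6L was 2.80-fold (2.03 to 3.90) lower. Only 1 of 9056 genes tested had a higher ratio than TBX5. TBX3, at a log2 ratio of 0.46, and TBX2, at 0.18, were not called, though the interval of TBX3's fold, 1.38 (1.26 to 1.51), excluded 1.

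TBX5 was the called member that separated the anterior library from the left mesoderm and from the pacemaker progenitor field. Against the left mesoderm TBX5 was 6.28-fold (5.54 to 7.14) higher and was the 1 member of 5 called, against 1.38% of all genes tested. Against the pacemaker progenitor field it was 4.60-fold (4.12 to 5.14) higher and the 1 member of 4 called, against 0.656% of all genes tested. TBX20 had log2 ratios of 0.75 and 0.91 in these comparisons, and TBX2 of 0.77 and 0.21.

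Left mesoderm and pacemaker progenitor field showed the smallest differences in this family by size of log2 ratio. No member of 5 tested was called, but only 0.542% of all genes were, so this count says little about the family. The log2 ratios ran from -0.56 for TBX2 to 0.56 for TBX6L. The intervals of TBX2, TBX3, TBX5 and TBX6L each excluded a ratio of 1 and that of TBX20 did not, so the libraries were not shown to be equal. The genes tested differed little for this pair, with log2 ratios of -0.37 at the 5th percentile and 0.39 at the 95th. Small ratios of the members therefore ranked high. In size, the ratio of TBX6L exceeded that of 97.1% of genes, TBX2 97.0%, TBX3 93.2%, TBX5 92.9% and TBX20 55.4%.

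The posterior library was the lowest for TBX5 and TBX20 and the highest for TBX6L. Left against posterior gave 1 member of 5, against 1.88% of all genes tested, with TBX20 2.33-fold (1.73 to 3.17) higher in the left library. TBX5, at 1.97-fold (1.57 to 2.49), and TBX6L, 2.05-fold (1.59 to 2.65) lower, fell just short of the threshold on log2(CPM + 1). The pacemaker progenitor field against the posterior mesoderm gave 2 members of 5, against 1.01% of all genes tested. TBX5 was 2.69-fold (2.17 to 3.37) higher in the field and TBX6L 3.28-fold (2.47 to 4.40) lower, with TBX20 at a log2 ratio of 0.92.

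Summed markers of other tissues also differed between these libraries. The 8 presomitic markers found apart from TBX6L itself, brachyury among them, summed to 59.6 CPM (posterior), 36.7 (pacemaker progenitor field), 36.0 (left) and 29.6 (anterior). CDX4, a caudal homeobox gene, followed that order except for its middle values, at 19.3, 6.11, 6.65 and 4.28 CPM, and MSGN1, a defining presomitic gene, reached 2.92 CPM in the posterior library and at most 0.75 elsewhere. FGF8, of the same list, went the other way, at 2.88 CPM in the anterior and 0.257 in the posterior library, and UNCX had 0 reads in all 8 libraries. The cardiomyocyte markers summed to 995 CPM (anterior), 712 (pacemaker progenitor field), 571 (left) and 520 (posterior), which is the order of TBX5. Most of each sum was TNNT2, at 694, 456, 370 and 297 CPM. MYL2 and TNNI1 kept that order too, but ACTC1, ACTN2, TNNC1, NKX2-5 and RYR2 did not. ACTC1, for instance, was at 24.1, 29.6, 18.6 and 20.2 CPM. The part of these tissues in the T-box differences was not tested.

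**Figure D3:**
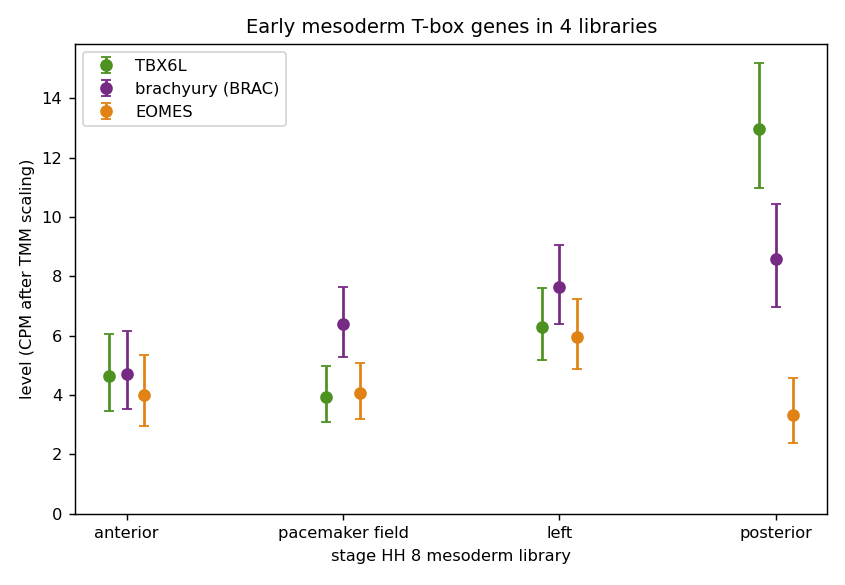
Levels of TBX6L, brachyury (row BRAC) and EOMES in the 4 stage HH 8 mesoderm libraries, in CPM after TMM scaling, with exact 95% counting intervals. TBX6L in the posterior library, at 13.0 CPM, stands above its other values, while EOMES is highest in the left library at 5.96 CPM.

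Other T-box rows gave the setting for TBX6L. Brachyury, the streak and notochord factor, was at 8.58 CPM (posterior), 7.64 (left), 6.38 (pacemaker progenitor field) and 4.72 (anterior), and between 0.760 and 1.92 CPM in the heart. EOMES, a T-box factor of streak mesoderm and endoderm, was between 3.35 and 5.96 CPM in the mesoderm and had 0 reads in 3 of 4 heart libraries. The posterior library, highest for TBX6L and brachyury, was the lowest mesoderm library for EOMES. No neighbours in brachyury's mesoderm order differed beyond counting error, though posterior was 1.82-fold (1.29 to 2.58) above anterior. For EOMES the anterior library was 1.20-fold (0.767 to 1.89) above the posterior one, which was not beyond counting error. The left library was 1.78-fold (1.22 to 2.65) above the posterior one, which was. MGA, a partner of MAX with a T-box, was between 8.69 and 12.1 CPM in the heart and between 14.01 and 14.8 CPM in the mesoderm. It was not called in any of the 16 comparisons, but it was 1.61-fold (1.29 to 2.02) lower in the node than in the pacemaker progenitor field and 1.60-fold (1.23 to 2.10) lower in the ventricle than in the anterior mesoderm. TBR1, a factor of cortical neurons, reached 0.70 CPM at most. The row TBXT had 15 reads over all libraries. No listed row was named TBX1, TBX18, TBX21 or TBX22, so these genes were not analysed here.

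The node was compared with the field that the labels name as its progenitor region. TBX5 was 20.03-fold (18.2 to 22.1) and TBX20 7.01-fold (5.998 to 8.23) higher in the node, 2 of the 4 members tested, against 23.9% of all genes tested. TBX3 was at a log2 ratio of 0.15 and TBX2 at -0.18. The ventricle apex against the anterior mesoderm had 4 of 4 members called, against 28.4% of all genes tested. TBX5 was 2.79-fold (2.61 to 2.99) and TBX20 4.75-fold (4.11 to 5.52) higher in the ventricle, while TBX3 was 14.6-fold (11.4 to 19.1) and TBX2 6.01-fold (3.49 to 11.1) lower. TBX5 and TBX20 were thus higher in the heart library of both comparisons, and TBX3 and TBX2 were lower in the ventricle than in the anterior mesoderm.

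All 4 heart libraries against all 4 mesoderm libraries gave 2 of 5 members, TBX5 and TBX20, against 8.15% of all genes tested. The mean of the heart levels was 13.5 times that of the mesoderm levels for TBX5 and 11.6 times for TBX20. Their nearest pairs were still apart, at 2.79-fold (2.61 to 2.99) for TBX5 and 3.57-fold (3.09 to 4.14) for TBX20, in both cases against the anterior mesoderm. TBX6L had a mean log2 ratio of -2.94 and was not called because 2 mesoderm libraries were below 5 CPM. Blood markers, 5 found, summed to between 11922 and 32046 CPM in the heart and between 44.6 and 62.6 CPM in the mesoderm. Nearly all of the heart sums was the globins HBA1, HBBA and HBZ. TAL1, of the same list, went the other way, between 3.02 and 5.22 CPM in the heart and between 11.3 and 19.2 in the mesoderm. The part of blood cells in the result was not tested.

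Ratios of reads within a library do not depend on scaling. They are not corrected for gene length, so only their change between libraries can be read. There were 5.81 TBX5 reads per TBX3 read (5.45 to 6.19) in the node and 6.43 (6.03 to 6.86) in the junction, but 26.1 (23.7 to 28.8) in the atrium and 43.1 (33.7 to 55.8) in the ventricle. The chambers therefore stood apart from node and junction, by 4.49 times (4.001 to 5.05) for atrium over node and 7.42 times (5.76 to 9.69) for ventricle over node. In the mesoderm the same ratio was 1.05 (anterior), 0.321 (pacemaker progenitor field), 0.174 (left) and 0.117 (posterior). The anterior ratio was 3.28 times (2.86 to 3.75) that of the pacemaker progenitor field and 8.97 times (7.195 to 11.3) that of the posterior library.

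TBX3 reads per TBX2 read told node and junction apart. The ratio was 11.4 (9.31 to 14.1) in the node and 2.43 (2.18 to 2.72) in the junction, 4.69 times (3.71 to 5.97) higher in the node. Atrium and ventricle had 1.64 and 4.40, and in the mesoderm it was 19.0 (left), 10.7 (anterior), 8.97 (pacemaker progenitor field) and 8.95 (posterior). The node's value thus lay within the mesoderm range, and the other heart libraries lay below it. TBX5 reads per TBX20 read were 6.67 (node), 5.74 (atrium), 3.21 (ventricle) and 2.53 (junction) in the heart, and 5.47 (anterior), 2.34 (pacemaker progenitor field), 1.79 (posterior) and 1.52 (left) in the mesoderm. Node, atrium and anterior mesoderm were thus the highest.

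**Figure D4:**
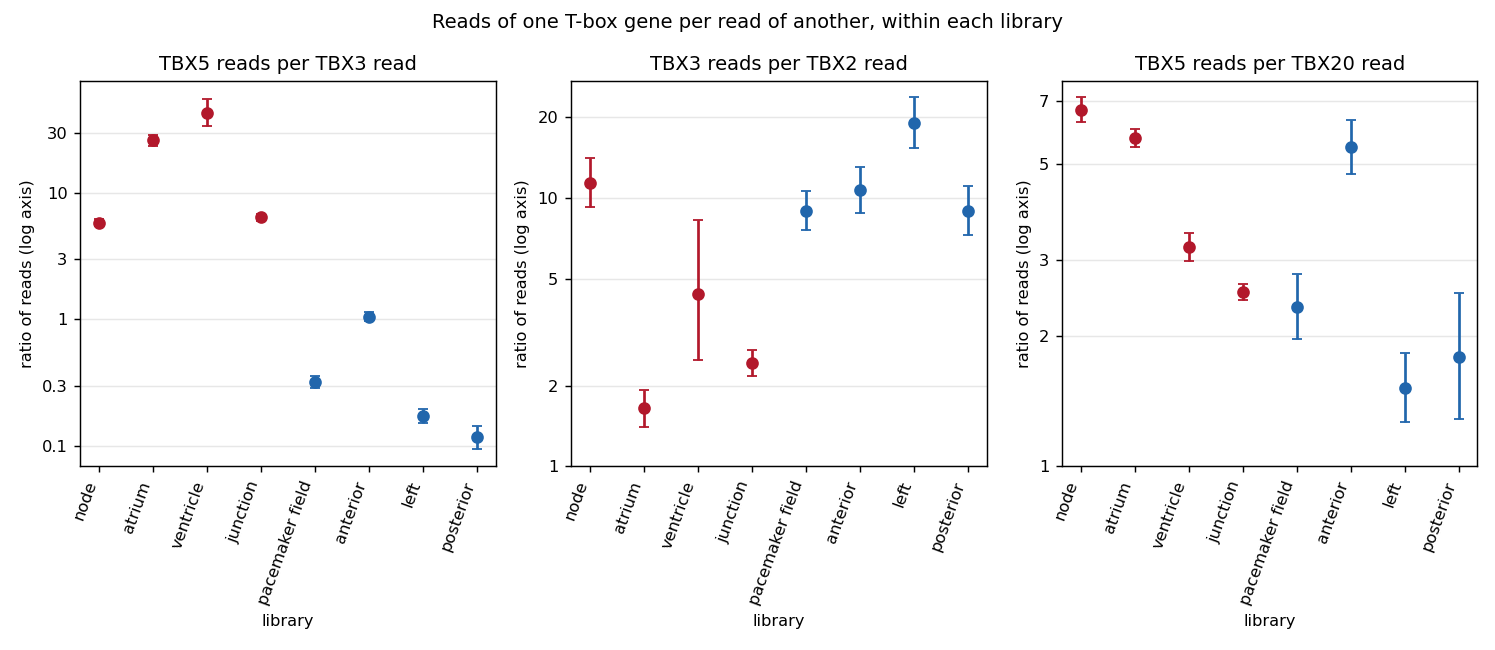
Reads of 1 member per read of another within each library, on log axes, with exact 95% counting intervals, red for heart and blue for mesoderm. TBX5 per TBX3 is highest in the ventricle at 43.1 and lowest in the posterior mesoderm at 0.117, and TBX3 per TBX2 is 11.4 in the node against 2.43 in the junction.

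As a share of all reads on the 8 members, TBX5 held 61.9% to 80.9% in the heart libraries and 8.00% to 44.2% in the mesoderm libraries. TBX3 held 1.73% to 12.9% in the heart and 42.0% to 71.3% in the mesoderm. The ranges did not overlap for either gene, but shares of the same total depend on each other. TBX3's levels in node and junction, 82.8 and 95.1 CPM, lay within the mesoderm range of 74.7 to 104.9 CPM after TMM scaling. Under scaling by total counts they were 82.1 and 81.0 CPM, just below the lowest mesoderm library, the posterior one at 82.4. Of the genes around this pair, the listed row next to TBX3 had at most 0.144 CPM, and MED13L, the row after it, was between 21.1 and 39.2 CPM over the 8 libraries. The row beyond TBX5 was between 76.3 and 86.5 CPM in the heart and between 96.2 and 113 CPM in the mesoderm.

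Counts for the gene lists below can be read against all genes tested. Node plus junction against the chambers had 0.867% called higher and 0.434% lower (median log2 ratio -0.01), and atrium against ventricle 4.3% and 3.09% (median -0.03). Anterior against posterior mesoderm had 0.905% and 1.04% (median 0.00), and heart against mesoderm 5.62% and 2.53% (median 0.02).

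Proteins that work with cardiac T-box factors were described from a list of 16 genes, of which 12 were found. Of the 12 tested, 5 were higher in the anterior than the posterior mesoderm, against 0.905% of all genes, and none was lower, with a median log2 ratio of 0.83 beside 0.00 over all genes tested. NKX2-5, the homeodomain partner of TBX5, had a log2 ratio of 3.41, MYOCD, a coactivator of SRF, 2.92, MEF2C 2.60, ISL1, a factor of cardiac progenitors, 1.54, and GATA4 1.21. NKX2-5 was at 16.9 CPM (anterior), 5.79 (left), 4.003 (pacemaker progenitor field) and 0.686 (posterior), the same order of regions as for TBX5 except that field and left were exchanged.

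In the heart few partners were called. Between node plus junction and the chambers none of 12 was (median 0.23 beside -0.01). Only 1.3% of all genes were called there, so this count says little about the list. In the atrium 2 of 11 were above the ventricle, against 4.3% of all genes: GATA6, at a log2 ratio of 1.98, and GATA5, at 1.16 (median 0.18 beside -0.03). NKX2-5 was at 1123 CPM (atrium), 926 (junction), 594 (ventricle) and 120.2 (node), so the node was lowest while its TBX5 level was not. Heart against mesoderm called 1 of 12, NKX2-5, at a log2 ratio of 6.46 (median 0.50 beside 0.02). As a count this is near the 5.62% of all genes called higher.

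Genes that TBX5 and TBX20 are known to activate, from mouse and chick work, were taken from a list of 19, of which 10 were found. In heart against mesoderm 7 of 10 were higher, against 5.62% of all genes, and none was lower, with a median log2 ratio of 5.43 beside 0.02 over all genes tested. They included GJA5, a gap junction protein of atrium and fast conduction tissue, at 7.72, NPPA, a natriuretic peptide, at 7.66, RYR2, the calcium release channel, at 6.89, and PLN, a regulator of the calcium pump, at 6.47. The cardiomyocyte markers behaved alike, with 8 of 8 higher. Between atrium, where TBX5 was higher, and ventricle the list was mixed. PLN, HEY2 and NPPA were lower in the atrium, 3 of 10 tested against 3.09% of all genes, with log2 ratios of -4.11, -3.82 and -2.63 (median -0.44 beside -0.03). None was called higher, and uncalled members with positive ratios were ATP2A2 at 0.77, ID2 at 0.68, RYR2 at 0.49 and CACNA1C at 0.15. None of 3 tested was called between anterior and posterior mesoderm (median 0.45).

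Genes that TBX2 and TBX3 repress in mouse came from a list of 12, of which 8 were found and some also stood in the list of activated genes. Between node plus junction and the chambers 1 of 7 was lower, against 0.434% of all genes, and none was higher, with a median log2 ratio of -0.97 beside -0.01. The called gene was GJA5, at 61.4 CPM in the node, 68.3 in the junction, 329 in the atrium and 571 in the ventricle. Within the heart, node and junction, with TBX3 above 80 CPM, had less GJA5 than the chambers. The ventricle, with the lowest TBX3 and TBX2, had the most. CDH1, of the same list, had another order, at 74.4 CPM (junction), 68.4 (atrium), 67.6 (ventricle) and 27.1 (node). Whether TBX3 or TBX2 has a part in these levels was not tested. NPPA was at 1224 CPM (ventricle), 599 (node), 197 (atrium) and 72.8 (junction), so the node exceeded the atrium. Between atrium and ventricle 2 of 7 were lower in the atrium, NPPA and GJA1, the latter at -1.15 (median -0.79). In heart against mesoderm 3 of 7 were higher, including SMPX, a small muscle protein, at 6.25, and GJA1 was lower at -2.30 (median 1.41). None of 3 was called between anterior and posterior mesoderm (median -0.21).

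Pacemaker and conduction genes, 9 found of 12, gave 1 of 8 higher in node plus junction, CACNA1G, a T-type calcium channel, at a log2 ratio of 2.25, and none lower (median 0.99). In the atrium 4 of 6 were above the ventricle, against 4.3% of all genes (median 1.39 beside -0.03), among them CNTN2, an adhesion protein of conduction tissue, at 1.93, CACNA1D at 1.84 and CACNA1H at 1.31. ISL1 was the 1 of 4 higher in the anterior than the posterior mesoderm (median 0.37), and HCN4 was the 1 of 8 higher in heart than mesoderm, at 3.94 (median 1.21).

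BMP signalling lies upstream of TBX2 and TBX20, and 8 of 20 listed genes were found. Of 5 tested, BMP2, at a log2 ratio of 2.59, and BMP4, at 1.56, were higher in node plus junction than in the chambers (median 1.56 beside -0.01). BMP2, a ligand that induces Tbx2 in the mouse canal, was at 62.4 CPM (node), 55.6 (junction), 15.4 (atrium) and 2.50 (ventricle). Within the heart, BMP2 and TBX2 were both lowest in the ventricle, while the node had the highest BMP2 and less TBX2 than the atrium. MSX2, a BMP-responsive homeobox gene, was at 83.8 CPM (junction), 10.9 (atrium), 2.60 (ventricle) and 1.80 (node). Its highest level was in the junction, like that of TBX2, and it also stood in the list of cushion mesenchyme markers. A link between these genes and the level of TBX2 was not tested. Atrium against ventricle called 3 of 5 higher, BMP2 at 2.23, MSX2 at 1.72 and SMAD6 at 1.15 (median 1.15), and none of 5 was called between anterior and posterior mesoderm or between heart and mesoderm (medians 0.14 and 0.36).

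Retinoic acid genes, which pattern the inflow end of the heart, had 8 of 12 found. Heart against mesoderm gave 1 of 7 higher, against 5.62% of all genes, which was CYP26B1 at 3.38. In the same comparison 3 were lower, against 2.53% of all genes: CRABP1 at -3.37, DHRS3 at -2.68 and CYP26A1 at -2.55 (median -1.46 beside 0.02). CYP26B1 was the 1 of 5 higher in the atrium than the ventricle, at 2.24 (median 0.58). RDH10, which makes retinaldehyde, was the 1 of 6 higher in the anterior than the posterior mesoderm, at 1.03 (median -0.05), and none of 6 was called for node plus junction (median 0.92). Of the Notch and HEY genes, 4 of 11 were found. In the atrium HEY1 was higher, at 1.07, and HEY2 at -3.82 and DLL4 at -1.27 were lower than in the ventricle (median of 4 -0.68). None was called among 4 for node plus junction, 3 for anterior against posterior and 4 for heart against mesoderm (medians -0.65, 0.24 and -0.11).

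**Figure D5:**
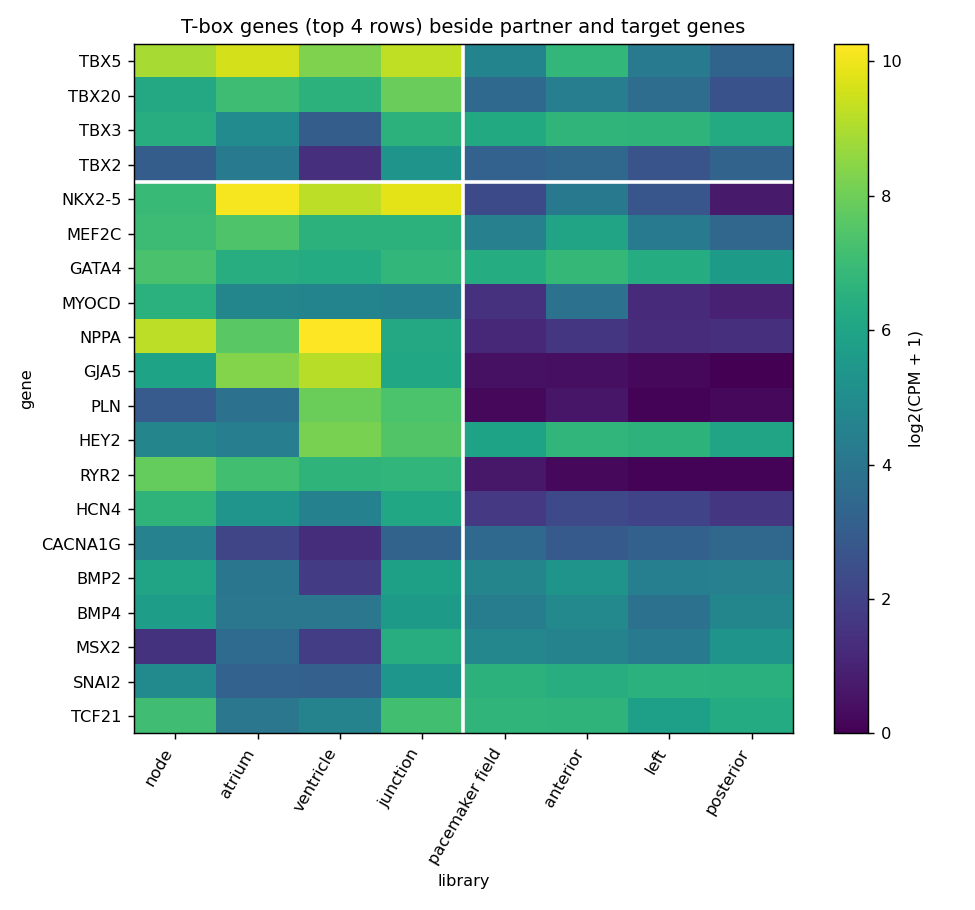
Level, as log2(CPM + 1), of TBX5, TBX20, TBX3 and TBX2 (top 4 rows) and of partner, target and marker genes in the 8 libraries, shown by colour. Within the heart, GJA5 is lower and TBX3 higher in node and junction than in the chambers, and NKX2-5 is lowest in the node. GJA5 and NKX2-5 are lower still in all 4 mesoderm libraries.

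Epicardial markers were, like TBX3, higher in node and junction than in the chambers, while TBX2 was lower in the node than in the atrium. Of 5 epicardial markers tested, 4 were higher in node plus junction, against 0.867% of all genes, TCF21 at 2.76, SEMA3D at 2.16, BNC2 at 1.94 and BNC1 at 1.73, with a median of 1.94 beside -0.01. The 6 found summed to 706 CPM (junction), 703 (node), 282 (atrium) and 209 (ventricle), and the defining marker UPK3B had 0 reads in node and ventricle. Most of each sum was ALDH1A2, at 470, 517, 252 and 169 CPM in that order, the tested marker that was not called. It was also between 280 and 522 CPM in the mesoderm libraries. Cushion mesenchyme markers, 7 found, summed to 497 CPM in the junction, where TBX2 was highest, and to 163 CPM in the atrium, 138 in the ventricle and 128 in the node. SNAI2 was the 1 of 7 called for node plus junction, at 1.99. Endothelial markers, 10 found, summed to 148 CPM in the junction and between 305 and 328 CPM in the rest of the heart. Endoderm markers, 4 found, summed to 1513 CPM in the node and 120.1 in the ventricle, nearly all of it APOA1, which is not particular to endoderm. Primitive streak markers, 8 found, stayed at or under 9.99 CPM in the heart and ran from 49.0 to 70.5 CPM in the mesoderm. A large part of the mesoderm sums was SHH, at 32.3 to 41.4 CPM, and most of the node's was FGF8, at 5.60 CPM. The 2 neural tube markers found stayed at or under 3.58 CPM. The part of these cells in the T-box differences was not tested.

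Genes with a pattern most like each member were ranked by Pearson's r of log2(CPM + 1) over the 8 libraries, among 2181 genes. The points share tissue and depth within a library, so r describes these libraries. TBX5 was most like MEF2C (0.98), a MADS box factor of muscle, then STEAP3 (0.98) and CMTM7 (0.97). TBX20 was most like DCLK2 (0.99), NKX2-5 (0.98) and PPFIBP2 (0.98), and TBX3 like METRNL (0.99) and NELL2 (0.97). METRNL was, like TBX3, lowest in the ventricle, at 4.12 CPM against 32.5 in the node and 37.8 in the junction. TBX6L was most like CDX4, WNT8A and SLC6A14 (0.99 each), and TBX2 had looser matches, COX1 (0.92), COQ8A (0.91) and SNRPD1 (0.91). These likenesses were not particular to the genes named, since r was 0.95 or more for 80 genes with TBX6L, 55 with TBX20 and 18 with TBX5. With TBX3 it was so for 9 genes and with TBX2 for 0.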

How the data were processed

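RNA-seq of polyadenylated RNA, read from both ends for 36 bases, was available for 8 pooled chick libraries, per the labels' protocols. Bowtie and TopHat are named in the submitters' processing notes without versions, and the build, annotation, counting program and use of strand are not given in the sources used here. Without strand, reads of overlapping antisense genes cannot be told apart. The deposited values are read counts and CPM, counts divided by the library total by the authors, per the file headers. Count columns stood in tables of other libraries and were matched by header name. For the posterior mesoderm, reads were worked back from the deposited CPM, 100% of values being whole within 0.01.

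Counts were scaled with TMM (edgeR 4.0.16, R 4.3.3), with factors from 0.848 to 1.18, and intervals were computed in scipy 1.17.1. Reads copied by PCR are not independent, so intervals are too narrow to that extent. The same code was tested on simulated data. Names were matched to RefSeq (assembly GRCg7b) where at least 2 genes within 10 rows were shared: 7304 by symbol, 728 by older symbol and 27 by entry name, with 320 matches dropped and 9399 rows without a match. Gene lists held 183 names, of which 107 were found. Members and lists were chosen with earlier results of these data known. The genes named from each list were up to 4 called per comparison, largest first, over 4 comparisons (node plus junction against chambers, atrium against ventricle, anterior against posterior, heart against mesoderm), and other genes, such as MSGN1, METRNL and NKX2-5 levels, were added after their values were seen. Values of some genes are not reported here. Alternatives were scaling by total counts, by DESeq2 1.42.0 size factors and by TMM over the compared libraries, a pseudocount of 0.25 CPM, no minimum level, 99% intervals, leaving out each library where a side had several, and Spearman correlation.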

Additional observations from a re-analysis of the deposited data

Results flagged for a closer look

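TBX3 differed in opposite directions between a heart library and a mesoderm library in 2 comparisons. Its log2 ratio was 0.15 for the node against the pacemaker progenitor field and -3.70 for the ventricle apex against the anterior mesoderm, and the counting interval of each excluded a ratio of 1. The difference between these ratios was not tested, since each tissue is 1 library. Under scaling by total counts the node value became -0.06, so its direction is not stable, while the ventricle value stayed far below 0. The levels behind it were 82.8 and 74.7 CPM in node and field, and 7.16 and 104.9 CPM in ventricle and anterior mesoderm.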

How the results depend on the processing

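Of 108 alternative counts of called members, 98 had the same members as reported and 10 did not. Under scaling by total counts, node against atrium had 1 member called in place of 2 (TBX2 lost) and left against posterior mesoderm 2 in place of 1 (TBX5 gained). A pseudocount of 0.25 CPM also gave 2 for left against posterior (TBX6L gained), and either change added TBX20 for pacemaker field against posterior. Leaving out 1 library at a time, node plus junction against the chambers gave 1 to 2 members, with TBX2 gained without the node or the atrium, and the count over all genes rose from 129 to between 262 and 524. With no minimum level TBX6L was also called for node against pacemaker field, ventricle against anterior mesoderm and heart against mesoderm, and the counts over all genes became 279 in place of 176 for anterior against posterior, 200 in place of 125 for anterior against left and 97 in place of 59 for anterior against pacemaker field. DESeq2 size factors, TMM over the compared libraries and 99% intervals changed no member called. Total-count scaling moved the median log2 ratio of all genes, from 0.02 to -0.29 for heart against mesoderm, where 433 genes were then higher and 472 lower in place of 587 and 265. By the same scaling, anterior against left became 29 higher and 129 lower in place of 48 and 77, anterior against pacemaker field 33 and 44 in place of 35 and 24, and node against junction 498 and 226 in place of 366 and 325. Node against atrium became 628 higher and 186 lower in place of 437 and 285, node against pacemaker field 1261 and 1261 in place of 1504 and 840, and ventricle against anterior mesoderm 1253 and 1665 in place of 1610 and 1149. Uncalled log2 ratios of TBX3 changed sign there, among them 0.15 to -0.06 for node against pacemaker field, -0.20 to 0.02 for node against junction and 0.05 to -0.12 for anterior against left mesoderm. For pacemaker field against posterior mesoderm, TBX3 went from 74.7 against 76.0 CPM to 85.8 against 82.4. TBX2 went from 8.33 against 8.49 CPM to 9.56 against 9.20 in the same comparison. By Spearman correlation the 3 genes most like TBX5, TBX20 and TBX6L were all different, while TBX3 kept 2 and TBX2 kept 1. No paired analysis was possible because each group is 1 library. Depth limits TBX2 in the ventricle (15 reads) and TBX6L.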
